A study of Homo sapiens with 12 samples.

Results

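Transcripts of 10 core factors of messenger RNA 3′ end formation were followed in THP-1 cells treated with inhibitors of transcriptional kinases. The genes were taken by name: CPSF1, CPSF2, CPSF3, WDR33 and FIP1L1 of the cleavage and polyadenylation specificity factor, CSTF2 and CSTF3 of the cleavage stimulation factor, NUDT21 and CPSF6 of cleavage factor I, and PCF11 of cleavage factor II. All 10 were among the 15831 genes that could be tested, of 30599 genes with counts. Each gene was measured by the row of the count table with its highest total, and each of its other rows was then read on its own. The table held 97 rows for the 10 genes, and 41 of these had different counts and passed the count filter.

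A messenger RNA is completed when its 3′ end is cut and a poly(A) tail is added. CPSF recognises the signal AAUAAA, CstF binds the GU-rich stretch downstream of the cut, cleavage factor I binds UGUA motifs upstream, and cleavage factor II helps RNA polymerase II to terminate. Sites inside introns can also be used, which gives short transcripts in place of the full one, and such sites are known in the genes of PCF11 and CSTF3 themselves.

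THP-1 is an acute myeloid leukaemia line that carries the MLL-AF9 fusion. Cells received the vehicle DMSO, the CDK9 inhibitor AZ5576, the CDK12 and CDK13 inhibitor THZ531 or the CDK7 inhibitor YKL5124 for 2 hours, with 1 mM 4-thiouridine in the last 10 minutes, 1000000 cells per treatment, and no dose given in the labels. Each of the 4 groups had 3 libraries of 3′ end tags from polyadenylated RNA, made with a QuantSeq forward kit and a 5% Drosophila S2 spike-in. The columns named UT were taken as the DMSO libraries because no other columns were left for them, so comparisons with DMSO depend on that step and those between inhibitors do not. No label ties replicates to cultures of their own, and p-values therefore reflect the spread among these libraries, which may be technical. Counts are of total RNA, and the newly made RNA was not analysed here.

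Human counts per library ran from 5048321 (AZ5576 replicate 2) to 12743576. AZ5576 replicate 2 also stood apart on principal component 3, at 29.58 against 4.13 and 2.15 for the other AZ5576 libraries. Of 13 monocytic markers, 12 reached a CPM (counts scaled to the library total) of 1 and CD14 did not, while 3 of 4 T cell and 3 of 3 erythroid markers were at 0 counts. CPM were scaled by the trimmed mean of M values (TMM), so a change is relative to the bulk of the human genes. With scaling to the fly spike-in the median log2 change of all genes against DMSO moved from 0.01 to -0.17 for AZ5576, from -0.00 to -0.37 for THZ531 and from -0.00 to -0.07 for YKL5124. The share of calls that were higher then moved from 44.7% to 10.3% for AZ5576, from 48% to 13.2% for THZ531 and from 34.9% to 21.1% for YKL5124. Library size alone gave 21.9%, 23.2% and 30.1%, and the upper quartile gave 53.4%, 48% and 54.1%. In bulk RNA, fewer cells of a type and less RNA per cell cannot be told apart.

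The transcript ends that the results turn on are shown first, from GENCODE release 29 on GRCh38, read 5′ to 3′ on the gene's own strand. The capitals mark AATAAA, the DNA form of the canonical poly(A) signal, within the last 50 bases of the annotated transcript. PCF11 on the plus strand has such a signal at the end of a transcript that stops in intron 1 (chr11:83158848-83158877). On the minus strand, CSTF3 has one at the end of its last exon (chr11:33084586-33084615). WDR33, also on the minus strand, has one at the end of a transcript that stops in intron 7 (chr2:127735389-127735418). NUDT21, again on the minus strand, has one in its last exon (chr16:56429138-56429167) and another where a transcript stops in intron 3 (chr16:56446508-56446537).
PCF11 intron 1 end: ataaaatttgtgAATAAAacatataaaata
CSTF3 last exon: agtcctttaaaaAATAAAaggattcagaaa
WDR33 intron 7 end: ttctgaccttcaAATAAAacttattatgta
NUDT21 last exon: tattgtcatttcAATAAAaaatatttgaaa
NUDT21 intron 3 end: tatttagttttcAATAAAtacaacttaaac
AATAAA was found on the transcript's strand in the last 50 bases of 41.4% of 77992 transcripts with a complete 3′ UTR, ATTAAA in 12.5% and at least 1 of them in 51.4%. These shares leave out transcripts without a coding sequence, such as those that stop in PCF11 intron 1 and NUDT21 intron 3. Neither was found there for the CSTF3 transcripts that stop in intron 3, the last exon of PCF11, the second WDR33 transcript of intron 7 (ENST00000409658) or the NUDT21 transcript of intron 4. Such a match describes the letters in the window and no more.

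In the annotation, several of these short transcripts extend an exon into its intron. The exon end and the start of the intron are given for 4 of them, with the first 6 bases of the intron in capitals. They lie at chr11:83157622-83157651 for PCF11, chr11:33141647-33141676 for CSTF3, chr2:127763042-127763071 for WDR33 and chr16:56446606-56446635 for NUDT21.
PCF11 exon 1 to intron 1: aaccgccaagGTTTTTatacaccccgcagc
CSTF3 exon 3 to intron 3: tgaagcagagGTTACTattttattttattt
WDR33 exon 7 to intron 7: attctccgagGTACGTgtactaacagtact
NUDT21 exon 3 to intron 3: aatgacagagGTATTTttctgtttaaccac

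After THZ531 all 10 genes differed from DMSO, and they moved in opposite directions. CSTF3, PCF11, WDR33, CPSF2 and CPSF3 fell, and CPSF6, CSTF2, CPSF1, FIP1L1 and NUDT21 rose. Of all genes tested, 63.4% were called in this comparison, 30.4% higher and 32.9% lower, so a call alone does not set these genes apart. Of the falls, 3 were more than 2-fold (CSTF3, PCF11 and WDR33), a size reached downward by 17.5% of all genes and upward by 4.23%. The median log2 change was 0.11 over the 10 genes and -0.00 over all genes. In each of the 10 genes the THZ531 and DMSO libraries did not overlap, but the share of all genes without overlap was not counted.

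**Figure D1:**
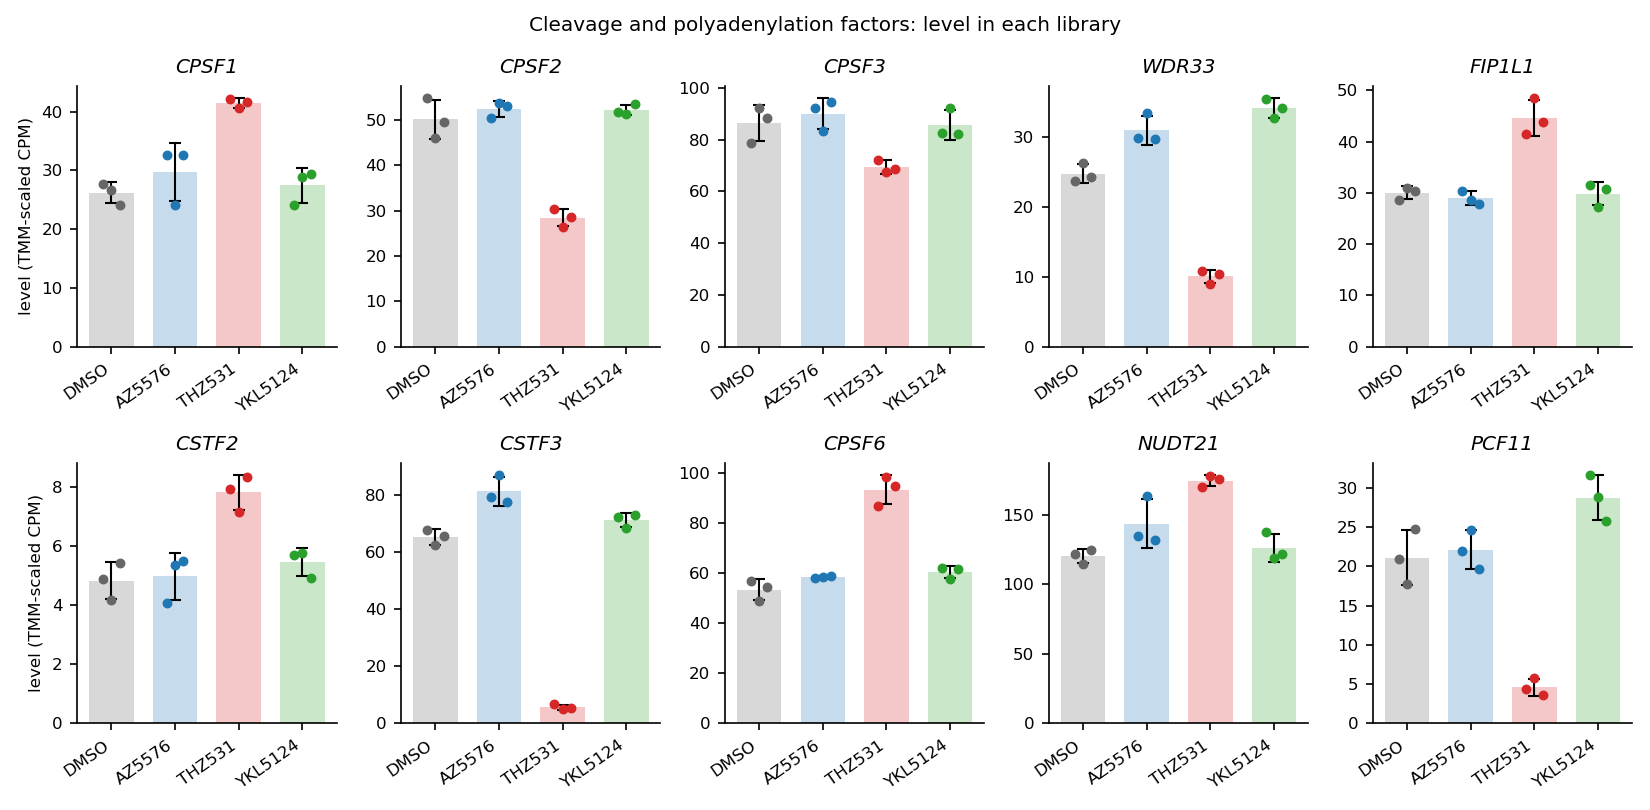
Levels of the 10 genes in TMM-scaled CPM, 1 panel per gene with its own linear axis from 0. Points are libraries, bars are group means and error bars are the SD over 3 libraries. The THZ531 libraries lie below all others for CSTF3, PCF11, WDR33, CPSF2 and CPSF3, and above all others for CPSF1, CPSF6, CSTF2, FIP1L1 and NUDT21.

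CSTF3, which encodes the scaffold that holds CstF together (chr11:33077188-33162371, 21 exons), fell most. Its DMSO libraries held 67.9, 62.6 and 65.7 CPM and its THZ531 libraries 6.63, 4.95 and 5.45 CPM. All THZ531 libraries were far below all others, with no overlap. The fall was 11.6-fold (log2 change -3.54, SE 0.11, adjusted p = 9.16e-22). CSTF2, the CstF subunit that contacts the downstream element (chrX:100820359-100840932), went the other way. It was the least counted of the 10 genes, at 4.88, 4.18 and 5.42 CPM in DMSO and 7.93, 7.16 and 8.33 CPM after THZ531. The rise was 1.61-fold (log2 change 0.68, SE 0.17, adjusted p = 0.000699), so 2 genes of the same complex separated.

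PCF11, the scaffold of cleavage factor II that binds the tail of RNA polymerase II (chr11:83156988-83187451, 16 exons), was next. Its last exon held 20.9, 17.7 and 24.8 CPM in DMSO and 4.42, 5.72 and 3.63 CPM after THZ531. The fall was 4.62-fold (log2 change -2.21, SE 0.16, adjusted p = 6.37e-13). The groups lay well apart, with a gap wider than either group's range.

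In CPSF, the fallers and risers were mixed. WDR33, which contacts the AAUAAA signal (chr2:127701022-127811187, 22 exons), went from 23.7, 26.3 and 24.3 CPM to 10.8, 9.03 and 10.4 CPM. It fell 2.47-fold (log2 change -1.30, SE 0.11, adjusted p = 1e-11). CPSF2, a partner of the endonuclease (chr14:92121937-92172145), went from 54.8, 46.1 and 49.6 CPM to 30.3, 26.5 and 28.6 CPM. It fell 1.77-fold (log2 change -0.82, SE 0.08, adjusted p = 8.9e-10). CPSF3, the endonuclease that makes the cut (chr2:9423568-9473101), changed least among the fallers. Its 3 DMSO libraries held 78.8, 92.1 and 88.5 CPM and its THZ531 libraries 72.3, 67.4 and 68.7 CPM, 1.24-fold lower (log2 change -0.32, SE 0.07, adjusted p = 0.000531).

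CPSF1, the large scaffold of CPSF on chromosome 8, rose from 27.7, 26.7 and 24.2 CPM to 42.1, 40.6 and 41.7 CPM. The rise was 1.58-fold (log2 change 0.66, SE 0.10, adjusted p = 8.4e-07). FIP1L1, which recruits poly(A) polymerase (chr4:53377643-53460861), rose from 28.6, 31 and 30.4 CPM to 41.5, 48.4 and 43.9 CPM, or 1.49-fold (log2 change 0.58, SE 0.08, adjusted p = 8.05e-07). Both were highest in the THZ531 libraries.

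In cleavage factor I, NUDT21 and CPSF6 rose. CPSF6, a large subunit (chr12:69239537-69274358), held 57, 48.8 and 54.4 CPM in DMSO and 86.8, 98.3 and 94.9 CPM after THZ531, 1.75-fold higher (log2 change 0.80, SE 0.07, adjusted p = 8.03e-11). NUDT21, the subunit that reads UGUA (chr16:56429133-56452199), was the most counted of the 10 genes. It held 122, 115 and 125 CPM in DMSO and 170, 178 and 176 CPM after THZ531, 1.45-fold higher (log2 change 0.53, SE 0.07, adjusted p = 2.82e-07). All THZ531 libraries of both genes were above all DMSO libraries. CPSF7, the alternative large subunit of the same factor, was not among the 10 genes and fell instead, from 52.8 ± 3.7 to 39.8 ± 4.1 CPM (SD, n = 3; log2 change -0.41, SE 0.08, edgeR adjusted p = 0.000106), and it is named here after its values were seen.

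The falls held under every scaling tried, but several rises did not. With scaling to the fly spike-in the changes were 0.32 for CSTF2 (adjusted p = 0.173), 0.21 for FIP1L1 (adjusted p = 0.172) and 0.16 for NUDT21 (adjusted p = 0.248), and only CPSF1 (0.30, adjusted p = 0.043) and CPSF6 (0.44, adjusted p = 0.00104) were still called. When all rows of a gene were summed, the falls were smaller for CSTF3 (log2 change -1.23, adjusted p = 3.54e-09) and PCF11 (-0.65, adjusted p = 0.000133), and the sum takes in rows of shorter transcripts.

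**Figure D2:**
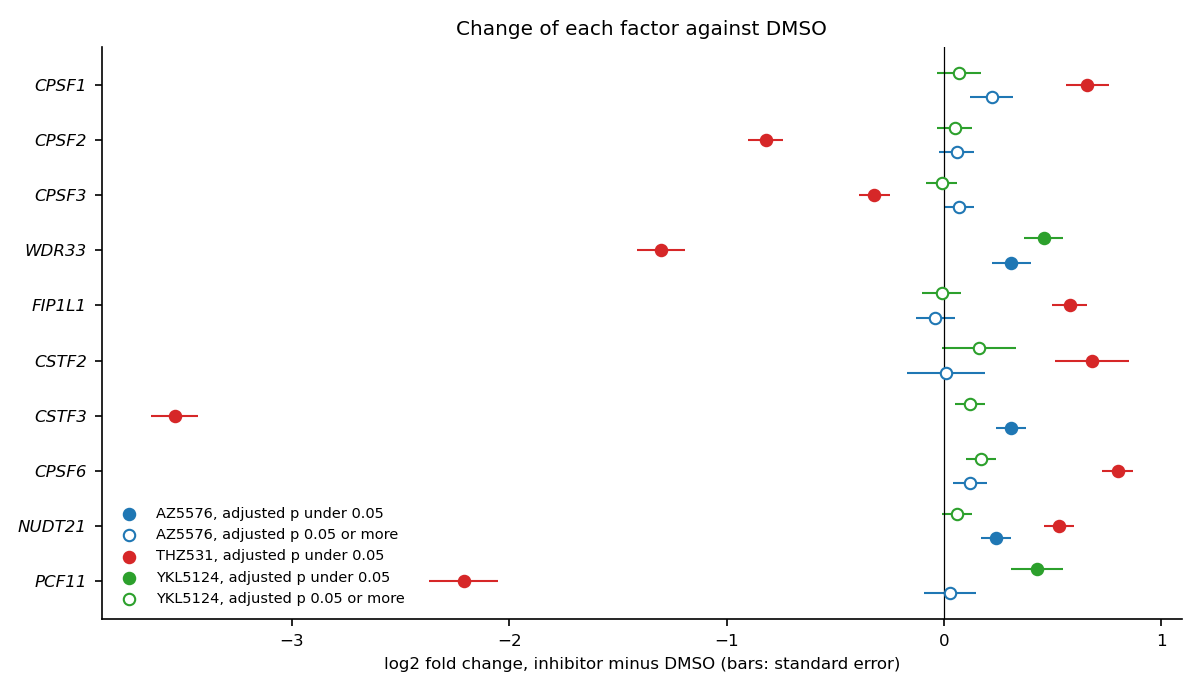
Log2 changes of the 10 genes against DMSO for each inhibitor, with error bars of 1 SE and filled points where the adjusted p was under 0.05. The THZ531 changes run from -3.54 (CSTF3) to 0.80 (CPSF6), while the AZ5576 and YKL5124 changes lie between -0.04 and 0.46.

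AZ5576 raised 3 of the 10 genes, NUDT21, CSTF3 and WDR33, and the other 7 did not pass the test. Of all genes tested, 41.7% were called, 18.6% higher and 23.1% lower. The median log2 change was 0.10 over the 10 genes and 0.01 over all genes. CSTF3, which fell after THZ531, held 79.4, 87.2 and 77.7 CPM after AZ5576, all above the DMSO libraries, and rose 1.24-fold (log2 change 0.31, SE 0.07, adjusted p = 0.00109). WDR33 held 29.9, 33.4 and 29.7 CPM and rose 1.24-fold (log2 change 0.31, SE 0.09, adjusted p = 0.0062). NUDT21 held 135, 164 and 132 CPM and rose 1.18-fold (log2 change 0.24, SE 0.07, adjusted p = 0.0112), with its highest value in AZ5576 replicate 2. For all 3 genes the AZ5576 libraries lay above the DMSO libraries.

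Without AZ5576 replicate 2, NUDT21 was no longer called (0.15, adjusted p = 0.0799) and CPSF1 was called (0.32, adjusted p = 0.0065). None of the 3 rises was called with fly scaling (CSTF3 0.12, adjusted p = 0.528; WDR33 0.13, adjusted p = 0.535; NUDT21 0.04, adjusted p = 0.845) or with the rows of a gene summed (CSTF3 0.11, adjusted p = 0.293; WDR33 0.11, adjusted p = 0.41; NUDT21 0.21, adjusted p = 0.0512).

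PCF11 did not pass after AZ5576, at 22, 24.7 and 19.7 CPM (log2 change 0.03, SE 0.12, adjusted p = 0.845), and its libraries overlapped those of DMSO. CPSF6 held 58, 58.5 and 58.7 CPM, all above DMSO, but did not pass (log2 change 0.12, SE 0.08, adjusted p = 0.19). With its rows summed CPSF6 was called (0.20, adjusted p = 0.0455). The remaining 5 had log2 changes from -0.04 (FIP1L1, adjusted p = 0.729) to 0.22 (CPSF1, adjusted p = 0.0726).

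YKL5124 raised 2 of the 10 genes, WDR33 and PCF11, and 8 did not pass. Of all genes tested, 20.8% were called, 7.25% higher and 13.5% lower. The median log2 change was 0.10 over the 10 genes and -0.00 over all genes. WDR33 held 35.5, 32.7 and 34.2 CPM, above all DMSO libraries, and rose 1.38-fold (log2 change 0.46, SE 0.09, adjusted p = 0.000194). PCF11 held 31.6, 28.9 and 25.8 CPM, also above all DMSO libraries though close to the highest of them, and rose 1.35-fold (log2 change 0.43, SE 0.12, adjusted p = 0.00676).

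The call of PCF11 was lost with fly scaling (0.36, adjusted p = 0.0608), with the rows summed (0.28, adjusted p = 0.0935) and without DMSO replicate 2 (0.32, adjusted p = 0.0562). That of WDR33 was lost with the rows summed (0.25, adjusted p = 0.0794). CPSF6 (62, 57.5 and 61.6 CPM) and CSTF3 (72.4, 68.6 and 73.2 CPM) lay above all DMSO libraries but did not pass (adjusted p = 0.103 and 0.242). CPSF6 was called with its rows summed (0.27, adjusted p = 0.0186) and with the upper quartile (0.24, adjusted p = 0.0194). The other 6 genes had log2 changes from -0.01 to 0.16.

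Set against each other, the inhibitors differed mainly through THZ531. All 10 genes differed between THZ531 and AZ5576, where 55% of all genes were called (27.1% higher, 27.8% lower), and between THZ531 and YKL5124, where 61% were called (30.5% higher, 30.5% lower). In both comparisons the 5 genes lower after THZ531 were CSTF3, PCF11, WDR33, CPSF2 and CPSF3. CSTF3 was 14.4-fold lower than after AZ5576 (log2 difference -3.84, SE 0.11, adjusted p = 6.14e-23) and 12.7-fold lower than after YKL5124 (-3.66, SE 0.11, adjusted p = 4.41e-22). PCF11 was 6.22-fold lower than after YKL5124 (-2.64, SE 0.16, adjusted p = 6.54e-15). NUDT21 differed least among the genes higher after THZ531 than after AZ5576 (0.30, adjusted p = 0.00116), and its call was lost with library size alone (0.13, adjusted p = 0.158) and fly scaling (0.12, adjusted p = 0.419). CSTF2 was higher than after YKL5124 by 0.52 (adjusted p = 0.00814), a call lost without THZ531 replicate 3 (0.43, adjusted p = 0.0599), with library size alone (0.25, adjusted p = 0.203) and with fly scaling (0.22, adjusted p = 0.368). Fly scaling also ended the calls of CPSF1 in both comparisons (adjusted p = 0.0889 and 0.0585) and of NUDT21 and FIP1L1 against YKL5124 (adjusted p = 0.228 and 0.0615). With rows summed the differences from AZ5576 and YKL5124 were smaller for CSTF3 (-1.34 and -1.18) and PCF11 (-0.51 and -0.92) and were still called.

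YKL5124 and AZ5576 differed in 1 of the 10 genes, PCF11, against 15.8% of all genes called (9.6% higher, 6.23% lower). PCF11 was higher after YKL5124 (log2 difference 0.40, SE 0.12, adjusted p = 0.0214), at 25.8 to 31.6 CPM against 19.7 to 24.7 CPM. This call was lost in 4 of the 6 runs that left out a library of these groups (AZ5576 replicate 1 or 3, YKL5124 replicate 1 or 2), at adjusted p = 0.0595 to 0.134. NUDT21 was called when YKL5124 replicate 1 was left out (-0.24, adjusted p = 0.0377).

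The other rows of these genes were read next, each placed by where its transcript ends. Rows match the 3′ UTR pieces of coding transcripts and, for transcripts without a coding sequence, 1 row each, read as the last exon. Rows can overlap and share reads. A row that counts a piece of a split 3′ UTR can lie in an earlier exon than the transcript's end. Of the 41 rows tested, 23 belonged to transcripts that end in the gene's last exon (last-exon rows) and 18 to transcripts that end upstream of it, in an intron or an earlier exon (upstream rows). FIP1L1 alone has 8 of the 41 rows and CSTF3 has 6, so counts of rows are not counts of separate units. After THZ531, 19 rows rose and 12 fell, against 26.2% and 26.7% of the 46431 rows tested. Of the 18 upstream rows 4 rose and 5 fell, and of the 23 last-exon rows 15 rose and 7 fell. After AZ5576, 4 rows rose and all 4 were last-exon rows, while 4 rows fell and all 4 were upstream rows (12.5% and 16.7% of all rows). After YKL5124, 3 rows rose and 4 fell, split in the same manner (4.01% and 8.57% of all rows). These percentages take last-exon and upstream rows of all genes together. The shares called in each kind of row over all genes were not counted for this test. Whether the splits are particular to these genes was therefore not tested.

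In PCF11, the last exon and intron 1 moved apart after THZ531. ENST00000624931 is a transcript of 1720 bases that runs from exon 1 into intron 1 (chr11:83157160-83158879) and ends 1.89 kb from the gene's start, at the first signal printed above. Its row held 9.17, 9.4 and 10.4 CPM in DMSO and 16, 14.8 and 15.5 CPM after THZ531, with no overlap, and rose 1.54-fold (log2 change 0.62, SE 0.13, adjusted p = 9.4e-05). The last exon fell in the same libraries. The ratio of the intron 1 row to the last-exon row was 0.438, 0.532 and 0.418 in DMSO and 3.62, 2.58 and 4.26 after THZ531. The intron 1 row therefore went from fewer to more counts than the last-exon row. Whether its reads come from a finished short transcript was not tested. The change of this ratio was 7.33-fold (log2 change 2.87, SE 0.20, limma adjusted p = 1.32e-05).

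After AZ5576 the same PCF11 row went the other way. It held 5.9, 6.13 and 6.25 CPM, below all DMSO libraries (log2 change -0.67, SE 0.15, adjusted p = 0.000504). Its ratio to the last exon was 0.268, 0.248 and 0.318, also below all DMSO libraries, but the change in ratio did not pass (-0.73, SE 0.20, adjusted p = 0.0827). After YKL5124 the row held 7.99, 9.12 and 9.47 CPM and overlapped DMSO (log2 change -0.12, SE 0.13, adjusted p = 0.652). The THZ531 rise of this row was not called with fly scaling (0.31, adjusted p = 0.119), while the ratio, which no scaling touches, stayed between 2.72 and 3.07 under all alternatives run.

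CSTF3 showed the widest split. ENST00000438862 (chr11:33140966-33141582) and ENST00000431742 (chr11:33141465-33141881) both read from exon 3 into intron 3, at the splice site printed above, and their rows overlap. The row of ENST00000438862 held 15.2, 14.7 and 18.5 CPM in DMSO and 16, 18.6 and 22.6 CPM after THZ531, with overlapping groups (log2 change 0.19, SE 0.13, adjusted p = 0.196). The row of ENST00000431742 held 17.5, 20.5 and 22.9 CPM and then 17.4, 20.5 and 23.7 CPM (log2 change -0.03, SE 0.12, adjusted p = 0.866). Neither intronic row passed the test, while the last exon fell 11.6-fold. The ratio of the first of them to the last exon went from 0.223, 0.235 and 0.282 to 2.41, 3.76 and 4.16. That was a change of 13.5-fold (log2 change 3.76, SE 0.19, limma adjusted p = 1.85e-06), and the second gave 3.54 (SE 0.18, adjusted p = 2.03e-06).

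Both rows of ENST00000524556, which also ends in intron 3 of CSTF3, fell after THZ531, though less than the last exon (ratio changes 2.34, adjusted p = 0.000924, and 1.36, adjusted p = 0.0439). The second of these was lost when any library but THZ531 replicate 3 was left out (adjusted p = 0.0509 to 0.131). After AZ5576 the ratio of ENST00000438862 was 0.177, 0.15 and 0.189, below DMSO in every library, and its change did not pass (-0.52, adjusted p = 0.194). After YKL5124 the row itself fell (11.9, 11.3 and 13 CPM, log2 change -0.42, SE 0.13, adjusted p = 0.0267), and its groups did not overlap. That call was lost without DMSO replicate 3 (-0.31, adjusted p = 0.195) and without YKL5124 replicate 1 or 2 (adjusted p = 0.0646 and 0.119).

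**Figure D3:**
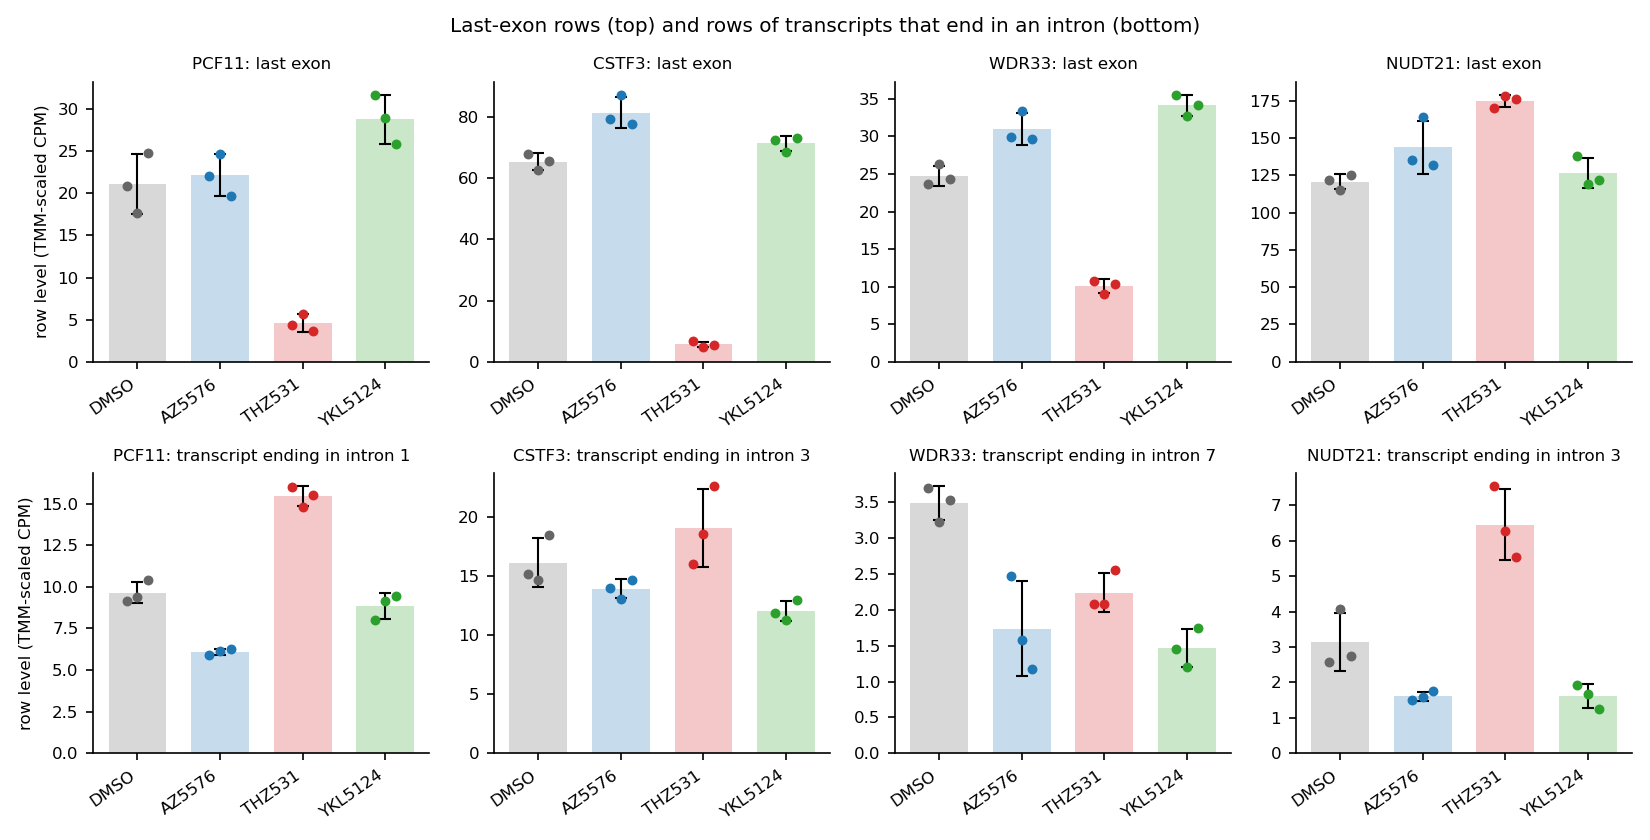
Levels in TMM-scaled CPM of the last-exon row (top) and of a row that ends in an intron (bottom) for PCF11, CSTF3 (ENST00000438862), WDR33 (ENST00000409658) and NUDT21 (ENST00000612596), each panel with its own linear axis from 0. Points are libraries, bars are means and error bars are the SD over 3 libraries. After THZ531 the last-exon rows of PCF11 and CSTF3 held fewer CPM than their intronic rows, and in DMSO they held more.

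In NUDT21 the last exon and 3 of 4 intronic rows were called higher after THZ531. ENST00000563362, a separate exon within intron 4 (chr16:56439127-56439496), held 1.33, 1.14 and 1.18 CPM in DMSO and 3.77, 5.83 and 4.59 CPM after THZ531. The row rose 3.73-fold (log2 change 1.90, SE 0.27, adjusted p = 4.12e-07), with groups far apart, and more than the last exon did (ratio change 1.38, SE 0.29, adjusted p = 0.00944). ENST00000612596, which reads from exon 3 into intron 3 (chr16:56446504-56447047), held 2.59, 4.08 and 2.75 CPM and then 7.54, 6.27 and 5.55 CPM. It also rose (log2 change 1.00, SE 0.21, adjusted p = 0.00016), but its ratio to the last exon did not pass (0.52, adjusted p = 0.181). The row of ENST00000563860, in intron 6, gave 0.60 (SE 0.25, adjusted p = 0.0427), a call lost with fly scaling (0.29, adjusted p = 0.404) and without AZ5576 replicate 2, DMSO replicate 1 or 3 or THZ531 replicate 1 or 3 (0.42 to 0.64, adjusted p = 0.054 to 0.221). The row of ENST00000567110, in intron 2, did not pass (0.71, SE 0.43, adjusted p = 0.166).

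After AZ5576 the intron 3 row of NUDT21 held 1.51, 1.58 and 1.75 CPM and after YKL5124 1.94, 1.67 and 1.25 CPM, both below all DMSO libraries. It fell in both (log2 change -0.94, SE 0.27, adjusted p = 0.00742, and -0.96, SE 0.26, adjusted p = 0.0119). Relative to the last exon the AZ5576 change was -1.14 (SE 0.23, adjusted p = 0.0219). This row rests on 8 to 58 counts per library. Without DMSO replicate 2 neither fall was called (-0.73, adjusted p = 0.0585, and -0.75, adjusted p = 0.0912), without YKL5124 replicate 3 the second was lost (adjusted p = 0.0932), and the ratio was lost without DMSO replicate 2 or AZ5576 replicate 1 or 2 (adjusted p = 0.0539 to 0.0712).

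WDR33 has rows that end in intron 7 and that were lower after every inhibitor. ENST00000393006, a separate exon (chr2:127735388-127738007), held 2.81, 2.85 and 2.28 CPM in DMSO, 0.877, 0.198 and 0.917 after AZ5576, 0.39, 0.661 and 0.32 after THZ531, and 1.33, 0.837 and 1.5 after YKL5124. All treated libraries were below all DMSO libraries. The log2 changes were -1.78 (SE 0.35, adjusted p = 0.000193), -2.54 (SE 0.40, adjusted p = 2.23e-06) and -1.11 (SE 0.32, adjusted p = 0.0167). ENST00000409658 (chr2:127762533-127764475), which reads from exon 7 into the intron, gave -0.98 (SE 0.27, adjusted p = 0.00513), -0.68 (SE 0.26, adjusted p = 0.027) and -1.24 (SE 0.27, adjusted p = 0.00146). Of these 6 calls, 3 were lost when a library was left out. They were the YKL5124 fall of ENST00000393006 (without DMSO replicate 1 or 2 or YKL5124 replicate 2, adjusted p = 0.0526 to 0.117), the AZ5576 fall of ENST00000409658 (without AZ5576 replicate 3, -0.69, adjusted p = 0.0825) and its THZ531 fall (without DMSO replicate 1 or 3 or THZ531 replicate 1 or 2, adjusted p = 0.0584 to 0.0873).

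Since the WDR33 last exon rose after AZ5576 and YKL5124, the ratios of its intron 7 rows to it moved further. For ENST00000409658 the ratio change was -1.35 after AZ5576 (SE 0.25, adjusted p = 0.0152) and -1.69 after YKL5124 (SE 0.25, adjusted p = 0.013). For ENST00000393006 it was -2.39 after AZ5576 (SE 0.50, adjusted p = 0.0262) and -1.57 after YKL5124, which did not pass (adjusted p = 0.228). After THZ531 the last exon and intron 7 fell together, and neither ratio passed (adjusted p = 0.106 and 0.179). The row of ENST00000393006 had 1 to 38 counts per library. All 3 ratio calls of WDR33 were lost without DMSO replicate 1 or 3 (adjusted p = 0.0561 to 0.094), and each was also lost without 1 other library (DMSO replicate 2 for ENST00000393006, AZ5576 replicate 2 and YKL5124 replicate 2 for ENST00000409658, adjusted p = 0.0506 to 0.0853).

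Counted over all ratios, 8 of the 31 rows of these genes that could be set against their gene's main row rose after THZ531, where 16.6% of 30556 rows were called (11.4% higher, 5.17% lower). Of those 8, 7 were upstream rows, in CSTF3 (most of them), PCF11, NUDT21 and CPSF2. Ratios of the same gene share its main row and are not independent. In CPSF2 it was 1 of 2 rows of ENST00000554290, a transcript that ends inside exon 6. The row's ratio change was 0.95 (SE 0.23, adjusted p = 0.0204), while the other row gave 0.01 (SE 0.40, adjusted p = 1). The call was lost without THZ531 replicate 2 or 3 (adjusted p = 0.0677 and 0.0517). The other was a shorter 3′ UTR row of CPSF6 (ENST00000266679), which rose against the main row after all 3 inhibitors, by 0.14 after AZ5576, 0.11 after THZ531 and 0.16 after YKL5124 (SE 0.03 each, adjusted p = 0.0352, 0.0442 and 0.0382). Those 3 calls were lost in most runs that left out a library, among them DMSO replicate 2 (adjusted p = 0.125, 0.141 and 0.141) and DMSO replicate 3 (adjusted p = 0.123, 0.14 and 0.139). After AZ5576 3 ratios fell and 1 rose (2.9% and 1.79% of all rows), and after YKL5124 1 fell and 1 rose (0.782% and 0.723%).

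The same ratios were compared between inhibitors, a comparison added after the data had been seen and independent of the DMSO columns. Against AZ5576, 8 of the 31 ratios were higher after THZ531 and 0 lower. Against YKL5124, 9 were higher and 0 lower. All of these higher ratios were of upstream rows. Of all rows, 18.8% and 17.6% were called in either direction, and the share called higher is not given here. The log2 difference in ratio was 4.28 against AZ5576 and 4.30 against YKL5124 for ENST00000438862 of CSTF3 (adjusted p = 6.55e-07 and 8.88e-07), and 3.60 and 3.45 for the intron 1 row of PCF11 (adjusted p = 2.77e-06 and 3.62e-06). For the intron 3 row of NUDT21 it was 1.66 and 1.51 (adjusted p = 0.000725 and 0.00142). For ENST00000409658 of WDR33 it was 2.03 and 2.37 (adjusted p = 0.000355 and 0.000154), while the row itself did not differ beyond its spread (0.30 and 0.56, adjusted p = 0.454 and 0.136).

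In a grouping made after these values were seen, rows were classed by where their transcripts end. Among all 8651 rows that end upstream of their gene's main row, 20.6% rose in ratio after THZ531 and 5.01% fell, and 7 of the 18 such rows of these genes rose. After AZ5576, 1.04% rose and 7.2% fell, with 3 falls among the 18. Among 19309 rows of transcripts that end in the same last exon as the main row, 8.2% rose and 2.39% fell after THZ531. A higher share of upstream rows was thus called over the whole table as well, and the difference between these genes and the rest was not tested.

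**Figure D4:**
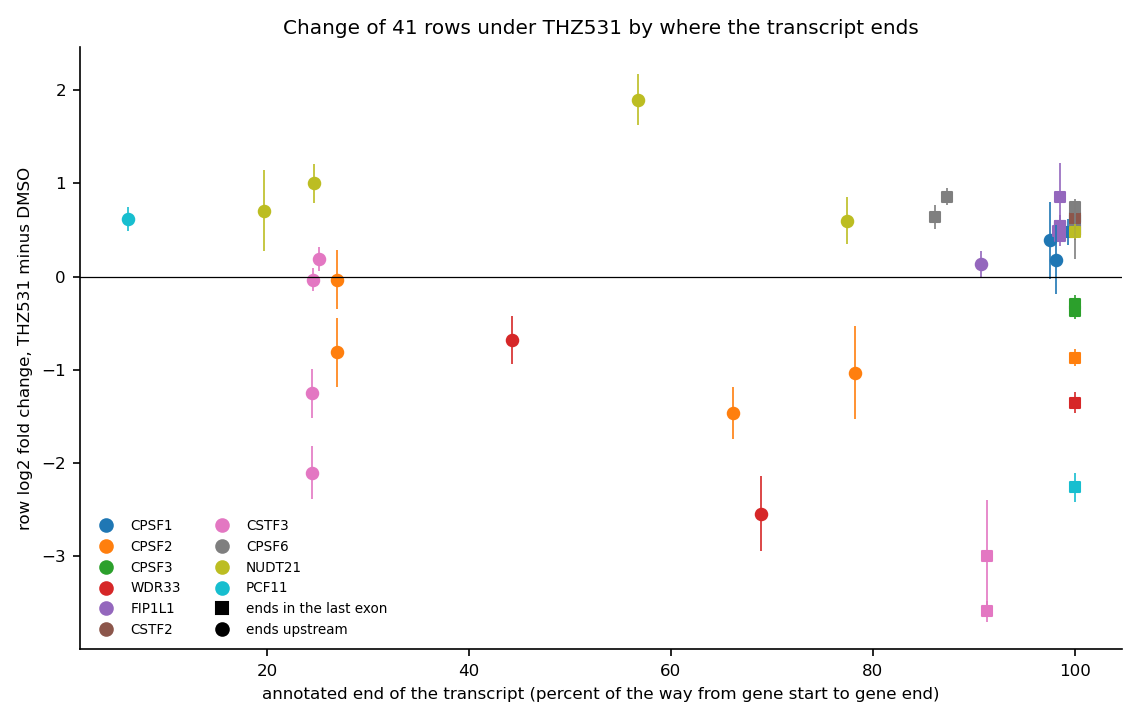
Log2 change after THZ531 of each of the 41 rows tested, with error bars of 1 SE, against the place of the transcript's annotated end as a percent of the way along the gene. Squares are rows of transcripts that end in the last exon, and circles are rows of those that end upstream of it. The last-exon rows of CSTF3 lie lowest, while the intron 1 row of PCF11 (0.62) and ENST00000438862 of CSTF3 (0.19), which end nearer the gene's start, lie above 0.

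The genes that fell after THZ531 were mostly longer than those that rose, with overlapping ranges. The fallers span 30.5 kb (PCF11), 49.5 kb (CPSF3), 50.2 kb (CPSF2), 85.2 kb (CSTF3) and 110 kb (WDR33). The risers span 16.1 kb (CPSF1), 20.6 kb (CSTF2), 23.1 kb (NUDT21), 34.8 kb (CPSF6) and 83.2 kb (FIP1L1). Thus 4 of the 5 fallers were longer than 4 of the 5 risers, and the part of gene length in these changes was not tested. All but CPSF1 are longer than the median of 20 kb over the genes tested. After THZ531, 39.6% of the longer genes were lower and 27% higher, against 26.3% and 33.8% of the shorter ones, in a split also made after the values were seen.

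Some of the last exons overlap genes on the other strand, and the strand setting of the counting is not given in the sources used here, so reads of such pairs cannot be told apart. TCP11L1, which overlaps the end of CSTF3, held 0.13 to 1.07 CPM in all libraries, against 4.95 CPM or more for CSTF3. PCF11-AS1 overlaps the last exon of PCF11, fell with it after THZ531 (log2 change -2.12, adjusted p = 0.000492) and held at most 3.56 CPM. ADCK5 overlaps CPSF1 and held 13.5 to 17.7 CPM in DMSO and 23 to 26.4 CPM after THZ531, against 24.2 to 27.7 and 40.6 to 42.1 CPM for CPSF1. It rose with CPSF1 after THZ531 (0.63, adjusted p = 0.000146) and was also called after AZ5576 (0.39, adjusted p = 0.0199), where CPSF1 was not. SFT2D3 overlaps the end of WDR33 and held 14 to 14.6 CPM in DMSO, against 23.7 to 26.3 CPM for WDR33. After THZ531 they held 9.36 to 11.2 CPM and 9.03 to 10.8 CPM in turn, nearly the same level. SFT2D3 fell with WDR33 after THZ531 (-0.46, adjusted p = 0.00269), and it fell after AZ5576 and YKL5124 (-0.96 and -1.15, adjusted p = 1.25e-06 and 1.58e-07), where WDR33 rose. The part of these neighbours in the members' changes was not tested.

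Other genes of 3′ end formation were read from the same fit, and no list was tested as a set. Of all genes tested, 30.4% were higher and 32.9% lower after THZ531. These shares were 18.6% and 23.1% after AZ5576, and 7.25% and 13.5% after YKL5124. They stand beside each list count that follows. Of 13 further subunits, 3 were higher, 8 were lower and 2 did not pass after THZ531 (median log2 change -0.27). RBBP6, a ubiquitin ligase of the cleavage complex, fell (log2 change -2.61, SE 0.10, adjusted p = 8.16e-20) and CSTF2T, the paralog of CSTF2, fell too (-1.93, SE 0.18, adjusted p = 1.81e-10). The phosphatase subunits PPP1CB (0.59, adjusted p = 4.02e-07) and PPP1CA (0.50, adjusted p = 1.86e-07) rose. CSTF2 and CSTF2T, which can share reads where their sequences match, thus moved in opposite directions. After AZ5576, 3 were higher, 5 lower and 5 did not pass. CLP1, the partner of PCF11, fell (-1.34, SE 0.25, adjusted p = 9.16e-05), as did the poly(A) polymerase PAPOLG (-1.21, adjusted p = 7.21e-06), while the poly(A) binding protein PABPN1 (0.37, adjusted p = 1.29e-05) and PPP1CA (0.35, adjusted p = 0.000107) rose. Both falls rest on few counts per AZ5576 library, 11 to 17 for CLP1 and 11 to 45 for PAPOLG. After YKL5124, 1 was higher, 3 were lower and 9 did not pass. The rise was that of RBBP6 (0.25, adjusted p = 0.0149), lost without DMSO replicate 1 or 3 or YKL5124 replicate 1 or 2 (adjusted p = 0.0542 to 0.0933), with the largest falls in CSTF1 (-0.70, adjusted p = 2.46e-05) and CSTF2T (-0.65, adjusted p = 0.00173).

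Of 9 termination factors and regulators, 4 rose and 5 fell after THZ531 (median -0.92), against 30.4% and 32.9% of all genes. ZC3H4, which restrains non-coding transcription, fell by 2.76 (SE 0.12, adjusted p = 5.67e-18). The exonuclease XRN2 (0.68, adjusted p = 2.77e-05) and SCAF8, which binds the polymerase tail (0.57, adjusted p = 4.3e-06), rose. After AZ5576, 4 fell and 5 did not pass, led by SCAF8 (-1.40, adjusted p = 1.36e-11) and ZC3H4 (-0.72, adjusted p = 2.88e-07). After YKL5124, 2 fell, SCAF8 (-0.83, adjusted p = 2.64e-07) and ZC3H4 (-0.49, adjusted p = 0.00013), and 7 did not pass.

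The U1 snRNP recognises 5′ splice sites and is known to restrain early cleavage. Its 3 specific genes all rose after THZ531, where 30.4% of all genes did, but the direction of SNRPA reversed with fly scaling and with library size alone. The largest rises were those of SNRPC (0.64, SE 0.05, adjusted p = 1.93e-11) and SNRNP70 (0.48, SE 0.07, adjusted p = 1.9e-06). SNRPC was the gene called after AZ5576 (0.34, adjusted p = 1.17e-05) and YKL5124 (0.19, adjusted p = 0.0137, lost without DMSO replicate 2 at adjusted p = 0.0602). Of 5 genes for the 3′ ends of histone messenger RNA, 1 rose and 4 fell after THZ531, 3 fell after AZ5576 and 3 after YKL5124. The stem-loop binding protein SLBP rose after THZ531 (0.23, adjusted p = 0.00601), a direction that reversed with fly scaling and with library size alone, and the call was lost without THZ531 replicate 1 (0.18, adjusted p = 0.0679). CASP8AP2 fell by 2.69 (SE 0.33, adjusted p = 3.42e-08), to only 3 to 7 counts per THZ531 library. ZNF473 fell after all 3 inhibitors, by 1.45 after AZ5576 (adjusted p = 1.33e-11), 0.74 after THZ531 (adjusted p = 6.06e-07) and 0.83 after YKL5124 (adjusted p = 4.71e-07). LSM11 fell after AZ5576 (-0.99, adjusted p = 5.29e-07) and YKL5124 (-0.81, adjusted p = 1.79e-05), and by less after THZ531 (-0.48, adjusted p = 0.0015). With fly scaling, the further subunits called higher went to 0 for all 3 inhibitors, and those of the termination list to 0 after THZ531.

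**Figure D5:**
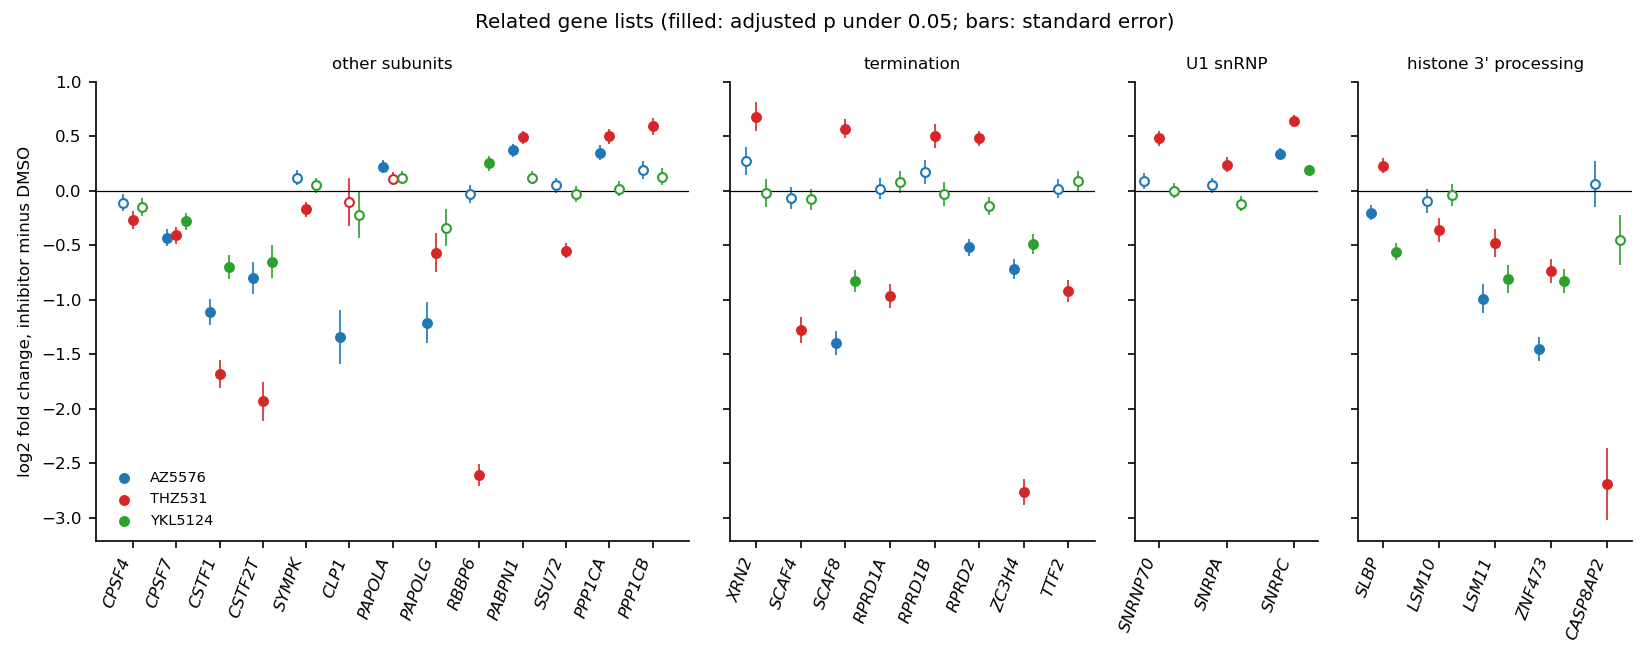
Log2 changes against DMSO of the further genes of 3′ end formation for each inhibitor (all but 1 of the termination list), 1 panel per list, with error bars of 1 SE and filled points where the adjusted p was under 0.05. The lowest points are those of ZC3H4 (-2.76), CASP8AP2 (-2.69, on 3 to 7 counts per THZ531 library) and RBBP6 (-2.61) after THZ531.

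Finally, the genes whose log2 CPM were most like those of each of the 10 were listed over the 12 libraries, which share the same treatments. Pearson's r is given as a description. The closest to CSTF3 was BICRAL (0.998), to PCF11 TTF2 (0.987) and TRIM4 (0.987), to WDR33 AGO3 (0.994), and to CPSF2 ZNF791 (0.991) with CSTF3 next (0.989). Of the risers, NUDT21 was closest to SDCBP (0.991), CPSF6 to IMPAD1 (0.985) and UBQLN1 (0.985), FIP1L1 to NPTN (0.983), CPSF1 to PKM (0.975), and CSTF2 to MORF4 (0.942). CPSF3 had the closest gene at 0.949 (FAM83H). Among the 10 themselves, CPSF2 and FIP1L1 ran opposite (-0.98).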

How the data were processed

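The deposited table holds raw read counts in whole numbers, made by the authors for 12 libraries, with 256726 human and 38374 fly rows (295100 in all). Tools named by the submitters' processing notes are Trim Galore 0.6.5, bcl2fastq 2.17.1.14 and edgeR 3.32.1, with dm6 and hg38 as builds. Aligner, counter, annotation and strand setting are not given in the sources consulted.

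Rows were named through GENCODE v29, which held 251529 human rows. The 5197 unnamed rows (0.655% to 0.719% of human counts) entered neither library sizes nor tests. Of 57096 genes with a named row, 94 were dropped because their counts (total at least 120) were identical to another gene's. What the rows hold was worked out from GENCODE: 98.8% of 72156 coding transcripts have as many rows as 3′ UTR pieces, and 99.9% of 99789 transcripts without a coding sequence have 1.

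Each gene was tested by its row of highest total, in edgeR 4.0.16 (R 4.3.3), with filterByExpr (minimum count 10), TMM factors and 1 quasi-likelihood fit over the 12 libraries. The 46431 rows were tested likewise. Ratios of a row to the main row were tested with limma 3.58.1 on log2 values with a pseudocount of 0.5. Adjusted p-values are Benjamini-Hochberg values with a threshold of 0.05 over all features tested. A gene's SE is its log2 change divided by the root of F. Tests were checked on simulated data, but the rows changed there had higher mean counts than the intronic rows of NUDT21. Rows with so few counts were therefore not covered. Within groups the chi-square per gene between libraries was 1.73 to 5.00, above sampling noise, and none was taken as a copy.

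The 10 genes, the lists and the tests were chosen with earlier results of these data known. By rule, all 10 genes are named and any of their tested rows may be (those described are the rows of the transcripts in introns, those whose ratio was called, and CPSF2's second row). Also named are the 2 largest rises and falls per further list among called genes, and the 2 genes most like each member (of which 1 is given for some) with a mean of at least 10 CPM. A gene that this rule names and a sequence are not reported here. Alternatives were other scalings (RLE, upper quartile, library size, fly), other count filters, summed rows, a pseudocount of 2, DESeq2 1.42.0, only the 6 libraries compared, a replicate block and leaving out each library.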

Additional observations from a re-analysis of the deposited data

How the results depend on the processing

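Against DMSO and between inhibitors, the 5 falls after THZ531 kept their direction and call under all alternatives run. Fly scaling lowered the number of the 10 genes called higher from 3 to 0 for AZ5576, from 5 to 2 for THZ531, from 2 to 1 for YKL5124, from 5 to 3 for THZ531 against AZ5576 and from 5 to 1 for THZ531 against YKL5124. It also lowered the rows of these genes called higher from 4 to 0 for AZ5576, from 19 to 5 for THZ531 and from 3 to 1 for YKL5124, and raised those lower after AZ5576 from 4 to 9. Library size alone gave 1 gene higher after AZ5576 and 2 for YKL5124 against AZ5576, and summed rows gave 1 after AZ5576 and 1 after YKL5124, which in both was CPSF6 and none of the reported rises. The filter of at least 50 counts in 3 libraries tests fewer rows. It left 2 rows lower after AZ5576, 953 of 1434 ratios called over all rows for AZ5576 with 1 member ratio lower, 2977 of 5072 for THZ531, and 0 member ratios lower for YKL5124. In other cases the cause was not tested.

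With 1 library left out, the genes called higher ranged over 1 to 2 for YKL5124 and 0 to 1 for YKL5124 against AZ5576, with 0 to 1 lower in the latter. Rows of these genes called higher ranged over 2 to 4 for AZ5576 and 1 to 3 for YKL5124, with 2 to 5 lower in the latter. Ratios called over all rows ranged over 931 to 1420 for AZ5576 and 230 to 482 for YKL5124. Member ratios higher ranged over 0 to 1 for AZ5576, 5 to 7 for THZ531 and 0 to 1 for YKL5124, and those lower over 1 to 5, 0 to 1 and 0 to 1. Reversed values were PAPOLA after THZ531 at -0.18 with library size (0.11 as reported), SLBP at -0.13 with fly scaling and -0.06 with library size, and SNRPA at -0.13 and -0.05.

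The replicate numbers gave no sign of pairing. With each group's mean taken off the log2 CPM, same-numbered libraries of different groups correlated at -0.102 to 0.072 over 18 pairs. Differently numbered libraries gave -0.087 to 0.106. Such values cannot show that the samples were not paired. With the replicate block the ratio calls over all rows for YKL5124 went from 460 to 305 and the CPSF6 ratio was called in no inhibitor (0 member ratios higher for AZ5576 and for YKL5124). It also ended the AZ5576 ratio call of ENST00000393006 of WDR33 (adjusted p = 0.0601), leaving 2 of 3 member ratios lower, and added a call for ENST00000431742 of CSTF3 after YKL5124 (-0.35, adjusted p = 0.0333). The block changed no call of the 10 genes. Rows with few counts limit the intronic values of WDR33 and NUDT21.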
